A study of Mus musculus with 14 samples.

Results

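The genes described here are 10 genes of T cell restraint, costimulation and exhaustion: the inhibitory receptors Pdcd1, Ctla4, Lag3, Havcr2 and Tigit, the costimulatory receptors Icos and Tnfrsf9, and the transcription factors Eomes, Tox and Foxp3. They were chosen by name, as the probe sets whose single gene symbol was 1 of the 10, with no filter on dim genes. All 10 were found with exactly 1 such probe set on both array designs, out of 22180 genes on the first design and 19938 on the second. On the first design, 1 further probe set lists Foxp3 together with its neighbours Ppp1r3f and Ccdc22 and was not used.

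Expression was measured in total RNA of tumours grown in C57BL/6 mice from B16-F10 cells, a pigmented mouse melanoma line. Control tumours came from cells labelled sensitive to radiation plus CTLA4 blockade, and Res 499 and Res 177 tumours came from sublines labelled resistant to it. Each subline was recovered from an unirradiated tumour that had persisted or relapsed in a mouse with a tumour on both flanks, and was implanted again. In the protocol the right flank received 20 Gy on day 8 and mice had 3 doses of the CTLA4-blocking antibody 9H10, on day 5, day 8 and day 11. Whether the profiled tumours were themselves irradiated or exposed to antibody, whether they came from separate mice and whether a subline is 1 clone is not given in the sources used here. The p-values therefore measure the spread between these tumours, part of which may be technical. The first design held 4 control, 7 Res 499 and 1 Res 177 tumours, and the second held 1 control and 1 Res 177 tumour. Replicate numbers were assigned in accession order over all 14 tumours, so the first design holds control replicates 2 to 5, Res 499 replicates 1 to 7 and Res 177 replicate 2.

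Checkpoint receptors are surface proteins that T cells gain after activation and that dampen or support the signal of the antigen receptor. Several inhibitory receptors stay high together on T cells that meet their antigen for a long time, a state called exhaustion, in which the nuclear factors Tox and Eomes take part. Foxp3 is the factor that defines regulatory T cells, which themselves carry Ctla4, Icos and Tigit, so in a whole tumour these transcripts can come from more than one kind of T cell, and Havcr2 also from myeloid cells.

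All levels are log2 expression values, on which a difference of 1 is a doubling. Array medians of the first design lay between 5.70 and 5.80, and no array stood apart, with correlations between arrays of 0.977 to 0.993. The melanocyte genes of the labelled tumour type were bright, with control means of 13.26 for Pmel and 13.73 for Dct, while 8 of the 10 genes lay in the lower 50% of all genes by mean level and Ctla4 and Tigit lay in the lowest 25%. Tnfrsf9 and Eomes were above the middle of all genes. A bulk tumour cannot separate fewer cells of a type from less RNA per cell.

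No member passed the threshold of an adjusted p under 0.05 in Res 499 against control (limma, Benjamini-Hochberg over 22180 genes), where 47 genes did, or 0.212% of those tested. Res 499 means were higher for 9 of the 10, against 52.3% of all genes, and the median difference of the 10 was 0.19, against 0.0056 over all genes. Only Lag3 was lower, at -0.01. With an unadjusted p under 0.05, 2 of the 10 were higher in Res 499 (Icos and Tox), against 5.69% of all genes. None of the 10 had 7 Res 499 tumours all above the highest control, against 0.996% of all genes. Without control replicate 5 the median was 0.27, 0.16 without Res 499 replicate 2, and 0.15, the lowest with 1 tumour left out, without control replicate 3.

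**Figure D1:**
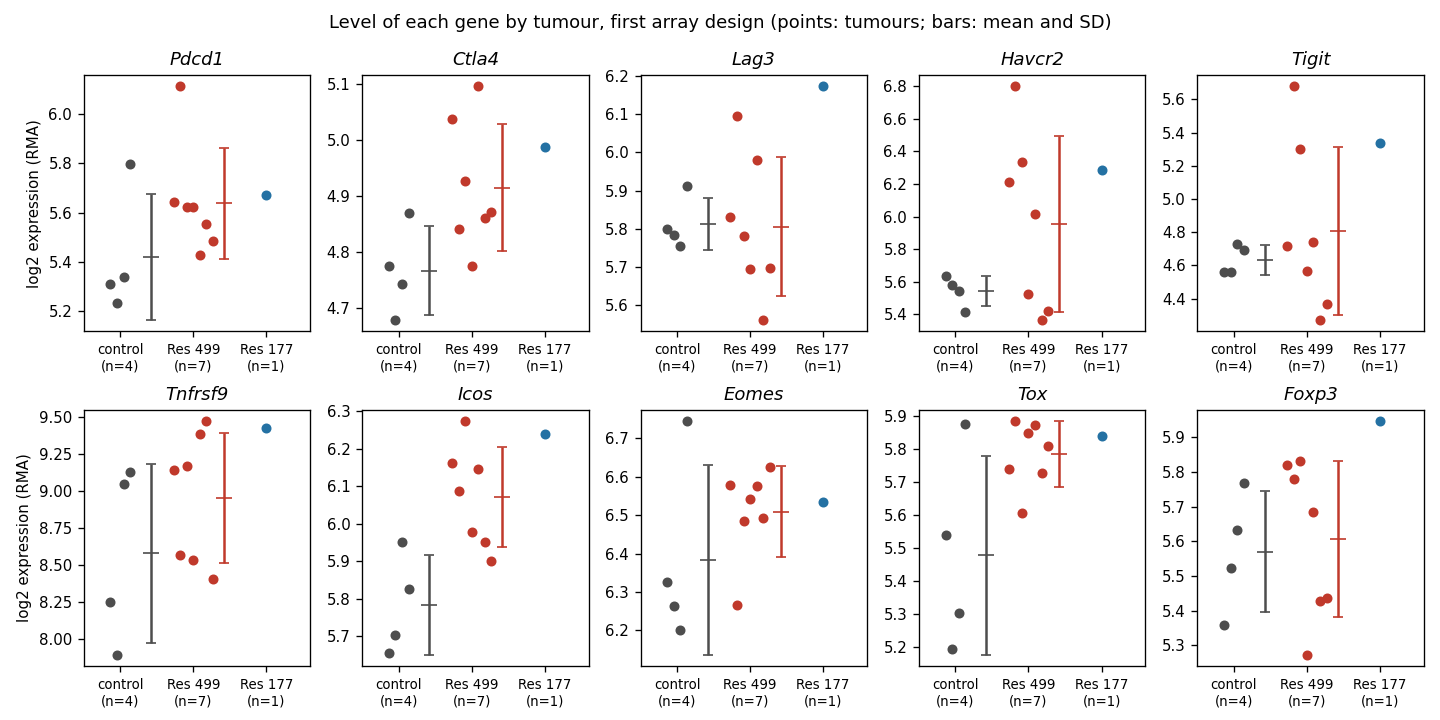
Log2 expression level of each of the 10 genes, 1 panel per gene, in the tumours of the first array design; points are tumours by group (4 control, 7 Res 499, 1 Res 177) and bars beside them are the mean and SD of groups with more than 1 tumour. Res 499 tumours overlap the control tumours for every gene, and the 1 Res 177 tumour lies above all control tumours for 7 of the 10.

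**Figure D2:**
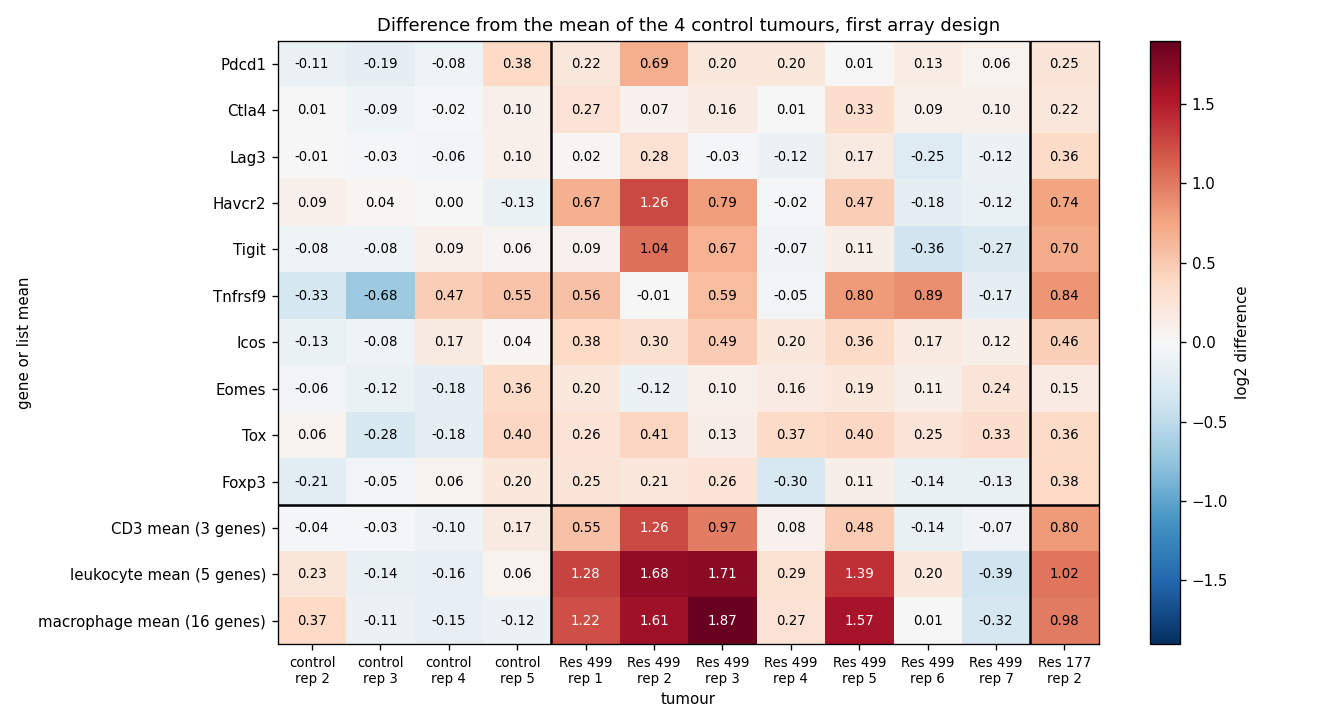
Level of each of the 10 genes in each tumour of the first design as the difference from the control mean on the log2 scale, tumours across and genes down, with the means of the CD3, leukocyte and macrophage lists underneath. Res 499 replicates 2 and 3 are highest for Havcr2 and Tigit, while replicates 6 and 7 lie below the control mean for both.

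Pdcd1 encodes PD-1, the receptor whose ligands are Cd274 and Pdcd1lg2. Control tumours read 5.31, 5.23, 5.34 and 5.80, and Res 499 tumours ran from 5.43 through a median of 5.62 to 6.11. All 7 Res 499 tumours were above the control mean, but only replicate 2 was above control replicate 5, so the groups overlap. Res 499 averaged 5.64 ± 0.22 (SD, n = 7) and control 5.42 ± 0.25 (SD, n = 4). The difference was 0.22, with a standard error (SE) of 0.13 (adjusted p = 0.609). It was 0.34 without control replicate 5 and 0.14 without Res 499 replicate 2. 

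Ctla4 encodes the receptor that competes with CD28 for Cd80 and Cd86, and is the target of the antibody used to select the sublines. Levels were 4.77, 4.68, 4.74 and 4.87 in control tumours, and 4.77 to 5.09 with a median of 4.87 in Res 499. In 4 of 7 Res 499 tumours the level was above the highest control. The difference of 0.15 (SE 0.07) had a 95% interval from -0.003 to 0.30 (adjusted p = 0.459).

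Lag3 encodes a receptor that binds MHC class II and Fgl1. It read 5.80, 5.79, 5.76 and 5.91 in control tumours and 5.56 to 6.10, median 5.78, in Res 499. Res 499 tumours lay on both sides of the controls, with 2 above the highest and 3 below the lowest. Means were 5.81 ± 0.07 (SD, n = 4) and 5.81 ± 0.18 (SD, n = 7), a difference of -0.01 with a 95% interval of -0.21 to 0.19. Res 177 replicate 2 was at 6.17, the highest of all 12 tumours.

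Havcr2 (TIM-3, a receptor of Lgals9 and Ceacam1 also present on macrophages and dendritic cells) and Tigit (a receptor that competes for Pvr and Nectin2) had the widest spread among Res 499 tumours. Their promoters are printed, with that of Tnfrsf9, because these 3 genes varied most over the 12 arrays (SD 0.468, 0.424 and 0.517). Each run is the 250 bases before the annotated start, 5′ to 3′ on the gene's strand, from RefSeq, GRCm38.p6; capitals mark motif matches.
Havcr2 promoter, chr11:46454681-46454930, plus strand: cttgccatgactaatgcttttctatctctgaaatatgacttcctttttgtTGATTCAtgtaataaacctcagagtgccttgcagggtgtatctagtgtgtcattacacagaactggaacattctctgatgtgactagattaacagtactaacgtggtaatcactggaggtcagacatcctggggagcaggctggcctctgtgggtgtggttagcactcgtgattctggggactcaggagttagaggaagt
Tigit promoter, chr16:43664185-43664434, minus strand: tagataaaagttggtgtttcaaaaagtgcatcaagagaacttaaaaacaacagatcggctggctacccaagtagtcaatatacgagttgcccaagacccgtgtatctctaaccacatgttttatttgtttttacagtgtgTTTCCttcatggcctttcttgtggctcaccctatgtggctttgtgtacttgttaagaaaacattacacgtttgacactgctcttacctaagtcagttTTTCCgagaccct
Tnfrsf9 promoter at the first of its 2 entries, chr4:150919905-150920154, plus strand: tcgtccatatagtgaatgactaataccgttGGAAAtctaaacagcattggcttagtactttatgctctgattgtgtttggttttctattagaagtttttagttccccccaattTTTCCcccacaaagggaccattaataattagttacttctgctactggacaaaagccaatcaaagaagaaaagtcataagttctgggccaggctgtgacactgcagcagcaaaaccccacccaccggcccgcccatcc
The motifs searched on both strands were the core of NFAT sites, GGAAA, whose other strand reads TTTCC, the AP-1 motif TGANTCA, and the T-box motif GGTGTGA, whose other strand reads TCACACC. Over 32851 promoter windows of this length, 55.6% held the NFAT core, 6.75% AP-1 and 3.33% T-box. Havcr2 had 1 AP-1 match and no NFAT core, while Tigit and the printed Tnfrsf9 window each had 2 NFAT cores and no AP-1 match. The window of the other Tnfrsf9 entry, chr4:150927749-150927998, which is not printed, had 3 NFAT cores and 1 AP-1 match. Of 9 windows of the 7 genes with an entry, 7 held the NFAT core, 2 AP-1 and 0 T-box. A match is a description of these letters, and no match says nothing about a factor.

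Havcr2 read 5.63, 5.58, 5.54 and 5.41 in control tumours. In Res 499 replicates 1 to 7 it read 6.21, 6.80, 6.33, 5.53, 6.01, 5.37 and 5.42. Thus 4 Res 499 tumours (replicates 1, 2, 3 and 5) were above every control and replicate 6 was below every control. The mean difference of 0.41 (SE 0.24), a fold of 1.33, was within this spread (adjusted p = 0.588), with group SDs of 0.09 in control and 0.54 in Res 499. Without Res 499 replicate 2 it was 0.27.

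Tigit read 4.56, 4.56, 4.73 and 4.69 in control tumours. In the same Res 499 order it read 4.72, 5.68, 5.30, 4.57, 4.74, 4.27 and 4.37, so that 3 tumours were above the highest control and 2 below the lowest. The difference of 0.17 (SE 0.23) gave an adjusted p of 0.857, and without Res 499 replicate 2 it was 0.03, without replicate 3 0.09 and without replicate 6 0.26. Tigit was also in the lowest 25% of genes.

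Icos and Tnfrsf9 are costimulatory: Icos binds Icosl on antigen-presenting cells and Tnfrsf9 (CD137) binds Tnfsf9 and marks recently activated T cells. Icos read 5.66, 5.70, 5.95 and 5.82 in control tumours and 5.90 to 6.27, median 6.09, in Res 499. In 5 of 7 Res 499 tumours it was above every control, and replicates 6 and 7 (5.95 and 5.90) were within the control range. The difference was 0.29 (SE 0.08, 95% interval 0.11 to 0.47, fold 1.22), with an unadjusted p of 0.00439 and an adjusted p of 0.193. Its SD was 0.13 in both groups.

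Tnfrsf9 read 8.25, 7.90, 9.05 and 9.13 in control tumours, a span of more than 1 log2 unit. Res 499 tumours ran from 8.41 through 9.14 to 9.47, and 4 of the 7 were above the highest control. With means of 8.58 ± 0.60 (SD, n = 4) and 8.95 ± 0.44 (SD, n = 7), the difference of 0.37 (SE 0.27) was within that spread (adjusted p = 0.681). Without control replicate 3, the lowest, it was 0.15. The T cell gene Cd3e averaged 5.75 in control and 6.07 in Res 499, and which cells carried Tnfrsf9 was not tested.

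Eomes, a T-box factor of effector and memory CD8 T cells and natural killer (NK) cells, read 6.33, 6.26, 6.20 and 6.74 in control tumours and 6.27 to 6.63, median 6.54, in Res 499. No Res 499 tumour was above the highest control or below the lowest. The difference was 0.13 (SE 0.10, adjusted p = 0.717). Control replicate 5 was the highest of all 12 tumours, and without it the difference was 0.25 (adjusted p = 0.226). Without control replicate 4 it was 0.07.

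Tox, an HMG-box factor needed for exhausted T cells to persist, read 5.54, 5.20, 5.30 and 5.87 in control tumours and 5.61 to 5.88, median 5.81, in Res 499. All 7 Res 499 tumours were above 3 of the 4 controls, and 1 was above control replicate 5. The difference was 0.31 (SE 0.11, 95% interval 0.06 to 0.55, fold 1.24), with an unadjusted p of 0.0173 and an adjusted p of 0.308. Leaving out control replicate 5, the highest control, gave 0.44 (adjusted p = 0.0617). Group SDs were 0.30 in control and 0.10 in Res 499, while the fit assumes 1 spread for all groups.

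Foxp3 read 5.36, 5.52, 5.63 and 5.77 in control tumours and 5.27 to 5.83, median 5.68, in Res 499. It lay above the highest control in 3 Res 499 tumours and below the lowest in 1. Means were 5.57 ± 0.17 (SD, n = 4) and 5.61 ± 0.23 (SD, n = 7), a difference of 0.04 (SE 0.12, 95% interval -0.22 to 0.30, adjusted p = 0.950). 

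**Figure D3:**
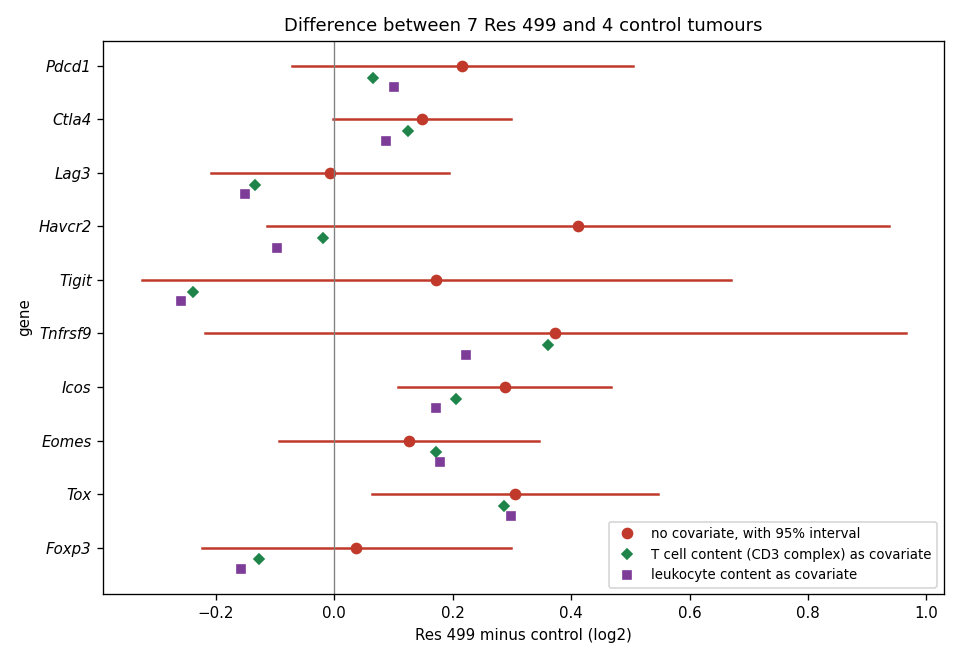
Difference in log2 level of Res 499 against control for the 10 genes as circles with the 95% interval from limma, and the same difference with CD3 content (diamonds) or leukocyte content (squares) as covariate. Intervals of Icos and Tox lie above 0, and those of the other 8 include 0. They assume 1 spread per gene for all groups, while for Tox the SD was 0.30 in control and 0.10 in Res 499.

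Control replicate 5 was the highest control for 7 of the 10 genes, and Res 499 replicate 2 the highest Res 499 tumour for 5. Res 499 tumours also differed in their T cell and leukocyte transcripts. As a mean of Cd3d, Cd3e and Cd3g relative to the control mean, CD3 read 0.55, 1.26, 0.97, 0.08, 0.48, -0.14 and -0.07 in replicates 1 to 7, and between -0.10 and 0.17 in control tumours. The 5 leukocyte genes (Ptprc, Cd53, Laptm5, Coro1a and Cd52) read 1.28, 1.68, 1.71, 0.29, 1.39, 0.20 and -0.39 there, and between -0.16 and 0.23 in control tumours. The order of Havcr2 over the 7 Res 499 tumours, replicates 2, 3, 1, 5, 4, 7 and 6 from highest to lowest, was the same as that of CD3. It is not particular to CD3, as the T cell and cytotoxic effector lists given below differed from it only by exchanging replicates 6 and 7. The T cell list includes the CD3 genes. Tigit differed from the CD3 order only by exchanging replicates 1 and 5. It was as near the order of the dendritic cell list given below, differing only by exchanging replicates 6 and 7. Tnfrsf9 was highest in replicate 6, which has the lowest CD3 of the group. Eomes was lowest in replicate 2, the tumour of highest CD3. Tox was highest in replicate 2 and lowest in replicate 3, the tumour of next highest CD3.

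**Figure D4:**
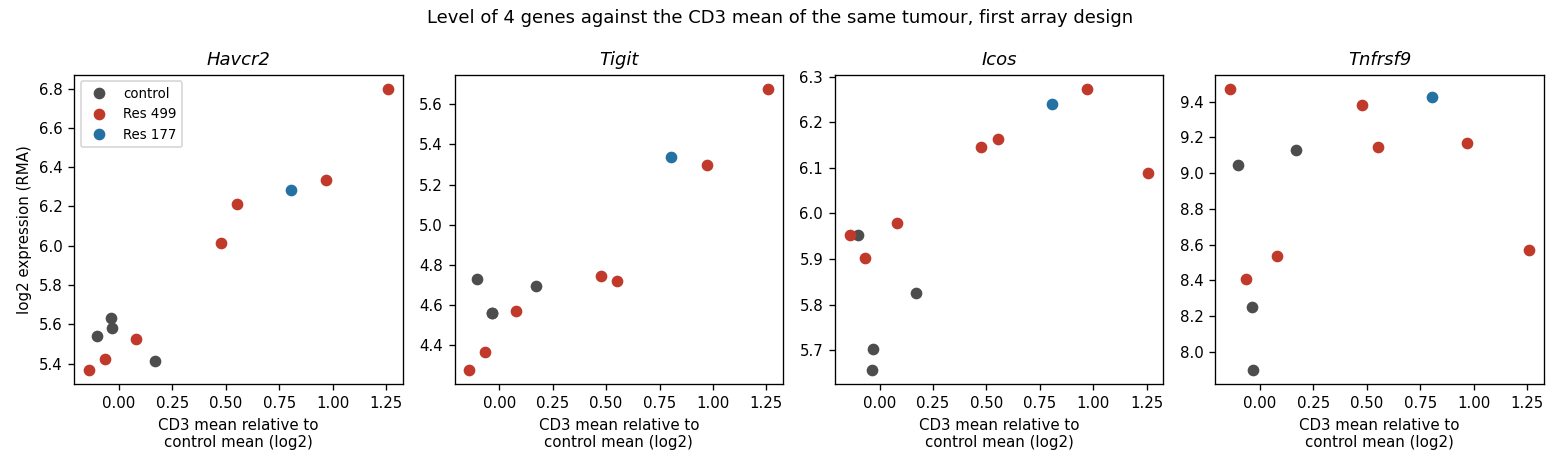
CD3 content (mean of 3 genes relative to the control mean, log2, horizontal axis) against the log2 level of Havcr2, Tigit, Icos and Tnfrsf9 (vertical axes, 1 panel each) in the 12 tumours of the first design, coloured by group. Havcr2 and Tigit are highest in the Res 499 tumours of highest CD3, and Tnfrsf9 is not.

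With CD3 content as a covariate the 10 genes were 6 higher and 4 lower in Res 499, with a median of 0.095 against 0.019 over all genes. Havcr2 was then at -0.02 and Tigit at -0.24 (adjusted p = 0.297), while Icos was at 0.21 (adjusted p = 0.346) and Tox at 0.29 (adjusted p = 0.404). Pdcd1 was at 0.07, Ctla4 at 0.12, Tnfrsf9 at 0.36 and Eomes at 0.17, and Lag3 and Foxp3 were both at -0.13. With leukocyte content as covariate the counts were again 6 and 4, with Havcr2 at -0.10, Tigit at -0.26, Icos at 0.17 (adjusted p = 0.531) and Tox at 0.30 (adjusted p = 0.502). The signs of Havcr2, Tigit and Foxp3 thus depend on this setting. Those of Pdcd1, Ctla4, Lag3, Icos, Tnfrsf9, Eomes and Tox did not in either one. The part of leukocyte content in the differences was not tested beyond these fits, and content differs between the groups.

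Of the genes that define T cells, 12 of 15 tested were higher in Res 499 with a median of 0.11, none past the threshold, from Cd3g at 0.90 to Lat, an adaptor of the antigen receptor, at -0.37. The T cell reference gene Cd3e was 5.75 ± 0.21 (SD, n = 4) in control and 6.07 ± 0.45 (SD, n = 7) in Res 499, a difference of 0.33 (SE 0.21, adjusted p = 0.632). Cd8a differed by 0.20 (SE 0.17, adjusted p = 0.742) and Cd4 by 0.23 (SE 0.18, adjusted p = 0.705). Markers of macrophages and monocytes were 16 of 16 higher with a median of 0.85, from Cx3cr1 at 0.20 to Adgre1 at 1.43, and leukocyte genes 5 of 5 higher with a median of 0.66, from Coro1a at 0.52 to Cd53 at 1.45. Cytotoxic effector genes, which T and NK cells use to kill, were 8 of 8 higher with a median of 0.12, from Gzmk at 0.00 to Nkg7 at 0.62. NK cell markers, 1 of which is Eomes, were 6 of 8 higher with a median of 0.13, from Klrb1c at -0.12 to Klrk1 at 0.34. Genes of regulatory T cells other than Foxp3 were 6 of 10 higher with a median of 0.05, from Capg at -0.11 to Nrp1 at 0.30. Dendritic cell markers were 8 of 9 higher with a median of 0.18, from Zbtb46 at -0.09 to Itgax at 0.67, B cell markers 5 of 5 with a median of 0.10, from Pax5 at 0.03 to Cd22 at 0.32. Melanocyte genes were 5 of 8 higher with a median of 0.03, from Sox10 at -0.26 to Slc45a2 at 0.20. None of these lists had a member past the threshold, and all differences are log2 differences of Res 499 minus control.

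The ligands of these receptors can be carried by tumour cells and by myeloid cells. In Res 499, 10 of 13 ligands were higher with a median of 0.08, and none passed the threshold. Cd274 (PD-L1, a ligand of PD-1) differed by 0.70 (adjusted p = 0.167) and Pdcd1lg2, the other PD-1 ligand, by 0.02. Ctla4 ligands Cd80 and Cd86 differed by 0.40 (adjusted p = 0.230) and 0.34 (adjusted p = 0.482). The Icos ligand Icosl differed by 0.18 (adjusted p = 0.384), Tnfsf9 by -0.11 and the Lag3 ligand Fgl1 by -0.04. The Havcr2 ligands were Lgals9 at 0.22, Ceacam1 at -0.21 and Hmgb1 at 0.06, and Lgals3, a ligand of Lag3, was at 0.19. The Tigit ligands Pvr and Nectin2 were at 0.02 and 0.08. 

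Other inhibitory and costimulatory receptors were 13 of 15 higher with a median of 0.21, from Cd28 at -0.05 to Cd244a at 0.48, and none passed the threshold. Other transcription factors linked to exhaustion were 9 of 15 higher with a median of 0.02. They ran from Nr4a2, an immediate early gene, at -1.09 (adjusted p = 0.451) to Irf4, a factor of antigen receptor signalling, at 1.23 (adjusted p = 0.082). Irf4 read 5.20 ± 0.12 (SD, n = 4) in control and 6.42 ± 0.58 (SD, n = 7) in Res 499. Which cells of these whole tumours, T cells or others, carried the listed factors was not tested.

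For Res 177 on the first design the comparison rests on 1 tumour, whose spread is assumed to be that of the other groups. All 10 genes were higher than the control mean, against 11985 of 22180 genes, with a median difference of 0.37 against 0.014 over all genes. None passed the threshold, where 0.455% of all genes did (101 higher and 0 lower). Icos was 0.46 higher (SE 0.15, adjusted p = 0.650) and Lag3 0.36 higher (unadjusted p = 0.0493), the only 2 with an unadjusted p under 0.05, against 3.31% of all genes. In 7 of the 10 the Res 177 tumour was above every control, against 23.2% of all genes, and it was highest of all 12 tumours for Lag3 at 6.17 and Foxp3 at 5.95. Tnfrsf9 at 9.42 was 0.84 above the control mean, Havcr2 at 6.29 was 0.74 above and Tigit at 5.34 was 0.70 above. Differences of the rest were 0.38 for Foxp3, 0.36 for Tox, 0.25 for Pdcd1, 0.22 for Ctla4 and 0.15 for Eomes. Pdcd1, Eomes and Tox were the 3 genes within the control range, where control replicate 5 read highest. In this tumour CD3 read 0.80 and the leukocyte genes 1.02 above the control mean. The CD3 genes were uneven, with Cd3g at 1.70, Cd3e at 0.73 and Cd3d at -0.02. Of the genes that define T cells, 11 were higher and 4 lower, with a median of 0.14. With CD3 as a covariate Pdcd1, Havcr2 and Tigit were at -0.021, -0.031 and -0.035. 

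On the second design, normalized apart from the first, Res 177 replicate 1 and control replicate 1 give 1 value each, so no test is possible. Tnfrsf9, whose 4 control tumours spanned 1.23 on the first design, read 9.84 in Res 177 and 8.36 in control. This was a difference of 1.49, or 2.80-fold, and 76 of 19938 genes were higher in Res 177 by more. No other member differed by 0.5 or more: Havcr2 was 0.37 higher (7.33 against 6.96) and Tigit 0.23 higher (7.03 against 6.81). The other 7 lay between -0.05 and 0.15, with Icos at 0.15, Lag3 at -0.03, Ctla4 at -0.05 and Foxp3 at -0.04. Pdcd1 read 6.78 in Res 177 and 6.76 in control, Eomes 6.09 and 6.06, and Tox 5.99 and 5.96. Thus 1 of 10 was higher by over 0.5, against 3.88% of all genes, and the median of the 10 was 0.029 against 0.026 over all genes. Leukocyte genes were 5 of 5 higher there with a median of 1.43, and CD3 genes 4 of 4 with a median of 0.20. Of the ligands, Cd274 was 1.16 higher, Lgals9 0.72 higher and Ceacam1 0.67 lower. Tnfrsf9, Havcr2 and Tigit were among the 7 of 10 genes higher in Res 177 on both designs. On the second design alone 11473 of 19938 genes were higher, and Pdcd1, Eomes and Tox were so by only 0.02, 0.03 and 0.03. The share of all genes higher on both designs was not counted. Lag3, Ctla4 and Foxp3 were above control on the first and below it on the second.

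**Figure D5:**
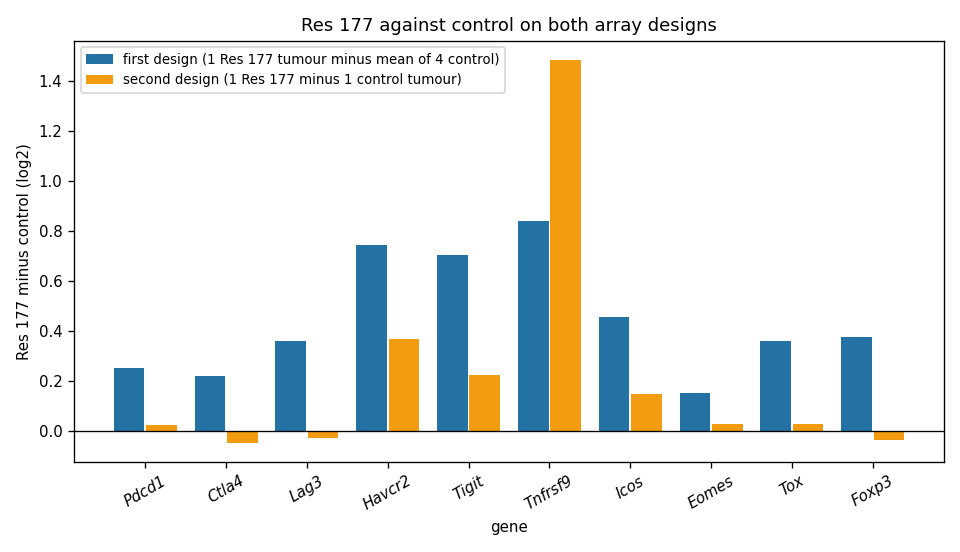
Difference in log2 level of the 1 Res 177 tumour from control on each array design, by gene; on the first design against the mean of 4 control tumours, on the second against 1 control tumour. Tnfrsf9 is highest on both, at 0.84 and 1.49, and the other 9 are smaller on the second design than on the first.

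Against the Res 177 tumour, Res 499 means were lower for all 10 genes, against 11721 of 22180 genes. All 10 values rest on the same 1 Res 177 tumour. Differences ran from -0.02 to -0.53 with a median of -0.25, against -0.0073 over all genes. The largest were Tigit at -0.53, Tnfrsf9 at -0.47 and Lag3 at -0.37 (unadjusted p = 0.0382), none of them past the threshold after adjustment, where 0.509% of all genes passed the threshold. This comparison and that of Res 177 with control share the Res 177 tumour. In the order of group means, Res 177 was above Res 499 and Res 499 above control for 9 of the 10. The share of all genes in this order was not counted, and 1 tumour stands for Res 177.

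Both sublines were also pooled by response label (8 resistant against 4 sensitive tumours). All 10 genes were then higher in resistant tumours, against 11836 of 22180 genes. Their median was 0.23, against 0.0082 over all genes. None passed the threshold, where 0.325% of all genes did. Icos was 0.31 higher (unadjusted p = 0.00227, adjusted p = 0.139), Tox 0.31 (0.0103, 0.248) and Ctla4 0.16 (0.0331, 0.388), 3 of 10 against 6.02% of all genes. Without control replicate 5, Tox was 0.44 higher (adjusted p = 0.0367), the only case among these fits in which a member passed. That tumour has the highest Tox of the 4 controls (5.87), so leaving it out must raise the difference and narrow the control spread. Among the other lists, 1 gene passed in this comparison: Id2, an inhibitor of helix-loop-helix factors in the list linked to exhaustion, named after its values were seen. It was 0.45 higher in resistant tumours (SE 0.08, adjusted p = 0.0451). Id2 was bright, with means of 11.28 in control and 11.74 in Res 499, where Cd3e averaged 5.75 and 6.07. Which cells carried Id2 was not tested. Its adjusted p ran from 0.0414 to 0.196 with 1 tumour left out, under the threshold only without Res 499 replicate 2, and was 0.176 with the sublines weighted equally. The pooled values share tumours with both comparisons above.

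The genes whose levels moved most like each member were found over the 11 control and Res 499 tumours, after subtracting each group's mean, over all genes. These tumours share their differences in leukocyte content and 1 array design, so the likeness is a description. For Havcr2 they were Slc43a3, Sirpb1c and Vcam1, with r of 0.972, 0.970 and 0.969, and for Tigit Trim30a, Cd3g and Il18bp at 0.968, 0.962 and 0.957. For Pdcd1 they were Scarf2 (0.947), Stxbp5 (0.941) and Usp31 (0.919). Ctla4 was nearest Cyp3a13 (0.940), Nrn1 (0.937) and Has2 (0.921). Lag3 was nearest Klrb1b (0.943), Acer2 (0.926) and Rab12 (0.907). Icos was nearest Gfra2 (0.973), Tlr6 (0.938) and Pcdh19 (0.904). Tnfrsf9 was nearest Ctsll3 (0.925), Grem1 (0.909) and Fam90a1b (0.906). Eomes was nearest Rsph9 (0.953), Ttll10 (0.950) and Mrap2 (0.947), Tox nearest Phc2 (0.935), Tph2 (0.933) and Rhox9 (0.926), and Foxp3 nearest Cyp2c50 (0.962), Aldh1a2 (0.914) and Tlr6 (0.890). In the gene order of RefSeq, Ctla4 lies between Cd28 and Icos, and Lag3 lies next to Cd4.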

How the data were processed

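RNA of 14 B16-F10 tumours was hybridised to Affymetrix whole-transcript arrays of 2 designs. The deposited values are log2 expression values, made by the authors with RMA from oligo (per the submitters' processing notes). Their range showed the log2 scale. Versions, genome build and the authors' probe annotation: not given in the sources used here. RMA normalizes quantiles between arrays, which the 2 designs underwent separately, so no level of one was set against the other. The precision is limited by how many tumours there are, as arrays have no read depth. Names come from GEO's platform annotation. Of 41345 probe sets on the first design, 23521 had 1 symbol, 1814 several and 16010 none; of 35556 on the second, 21789, 1621 and 12146. Probe sets with several or no symbols were left out. A gene with several probe sets kept the one with the highest mean.

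Groups followed the subline label. Testing used limma 3.58.1 in R 4.3.3 (lmFit, eBayes) with Benjamini-Hochberg adjustment over 22180 genes, in a fit of 3 groups and, for resistant against sensitive, a separate fit. The fit was tested on simulated data. The second design, with 1 tumour a group, was not tested. The 10 genes and the lists were chosen with earlier results of these data known. Named besides them are Cd3e, Cd8a, Cd4, the ligands, the 3 most similar genes per member and, from the other lists, genes past the threshold in Res 499 against control or else the largest and smallest difference. Other settings tried were a filter on dim genes, another probe set, normalization, prior, array weights, samples in the fit, leukocyte and T cell content as covariates, subline weights, and each tumour left out. Promoters are RefSeq sequences (GRCm38.p6), found for 7 of the 10 genes; Icos, Lag3 and Tox had no entry.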

Additional observations from a re-analysis of the deposited data

Results flagged for a closer look

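Within groups of 4 or 7 tumours, the highest or lowest tumour of each of the 10 genes was compared with the rest, and 2 of 20 groups had a tumour standing apart by Dixon's criterion; chance gives about 1 in 20. Both involve Res 499 replicate 2. Pdcd1 was 6.11 in that tumour, with the nearest Res 499 tumour at 5.64, and Eomes was 6.27, with the nearest at 6.49. Without replicate 2 the Res 499 difference from control was 0.14 for Pdcd1 (adjusted p = 0.625) and 0.17 for Eomes (adjusted p = 0.505). The cause of these values was not tested.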

How the results depend on the processing

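No member passed the threshold in Res 499 against control under any of the alternatives run, the lowest adjusted p being 0.0617 for Tox. The direction of Pdcd1, Ctla4, Icos, Tnfrsf9, Eomes and Tox was the same in all of them. Some of these could not change a direction. Each member has 1 probe set, so the choice of probe set has no effect, and the filters and the prior leave a difference as it is. The cause of the changes below was not tested. Havcr2, Tigit and Foxp3 turned to -0.096, -0.26 and -0.16 with leukocyte content as covariate, and to -0.018, -0.24 and -0.13 with CD3 content. Leaving out 1 tumour moved Foxp3 between -0.034 and 0.10 and Lag3 between -0.0548 and 0.034. With CD3 content, Res 177 against control gave -0.021 for Pdcd1, -0.031 for Havcr2 and -0.035 for Tigit, and Res 499 against Res 177 gave 0.086 for Pdcd1 and 0.012 for Havcr2; leaving out 1 tumour moved Eomes there between -0.044 and 0.016. Resistant against sensitive gave -0.116, -0.071, -0.21 and -0.13 for Lag3, Havcr2, Tigit and Foxp3 with leukocyte content, -0.124, -0.019, -0.23 and -0.12 with CD3 content, and Lag3 between -0.0064 and 0.081 with 1 tumour left out. Median differences of the 10 moved, for Res 177 against control, to 0.50 without the lowest 50% of genes, which left 2 of the 10, to 0.20 with leukocyte content and 0.15 with CD3 content, for Res 499 against Res 177 to -0.081 with CD3 content, and for resistant against sensitive to 0.099 and 0.094 with leukocyte and CD3 content. Genes past the threshold numbered 47 in Res 499 against control, but 84 without the lowest 50%, 268 with array weights, 26 with leukocyte content, and 6 (without control replicate 4) to 181 (without Res 499 replicate 2) with 1 tumour left out. For Res 177 against control they numbered 35 and 2 without the lowest 25% and 50%, and for Res 499 against Res 177 39 and 2. Resistant against sensitive gave 115 without the lowest 50%, 45 with array medians subtracted, 285 with array weights, 35 with leukocyte content, and 8 to 130 with 1 tumour left out, of which 0 to 1 was a member. No paired analysis was possible because the labels carry no replicate numbers.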
